A study of Mus musculus with 15 samples.

Results

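The AP-1 transcription factors are described here in isolated left ventricular cardiomyocytes of mice exposed to iron ions. They were taken as 8 listed genes (Fos, Fosb, Fosl1, Fosl2, Jun, Junb, Jund and Atf3) out of 19937 genes named on the array. Each gene had 1 probe set with a single symbol, so no choice between probe sets was needed. Every mouse was a male of the C57Bl/6NT strain, 8 to 9 months old. For the iron groups the whole body received 0.15 Gy of 56Fe ions (1 GeV per nucleon; linear energy transfer about 151 keV per µm), with 3 arrays each from day 1 and day 3 afterwards and 2 arrays each from days 7, 14 and 28. The sham group, which received a mock exposure, had 2 arrays of day 1 and 1 array of day 3, named sham replicate 3 below. The study asked when after exposure the transcripts of these cells change. The sham arrays used here end at day 3, so for days 7, 14 and 28 exposure and time cannot be told apart. The labels do not state whether replicate arrays stem from different mice, so a p-value reflects only the spread between arrays, which can be technical.

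AP-1 is a family of dimeric transcription factors with a basic leucine zipper. Fos proteins bind DNA only as partners of a Jun protein, while Jun proteins also pair with each other, and Atf3 pairs with Jun proteins or with itself. Most of the genes are immediate early genes: existing factors such as Srf and Creb1 switch them on within minutes of growth signals, stretch, adrenergic stimulation or cell stress, and their transcripts are short-lived. In heart muscle they are known for their response to pressure overload and injury.

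Known control elements lie just upstream of the genes that the results turn on. The 250 bases before the start of Atf3 (GRCm38.p6 chr1:191183334-191183583, minus strand), Jun (chr4:95052223-95052472, minus strand) and Fos (chr12:85473640-85473889, plus strand) are shown 5′ to 3′ from RefSeq, because Atf3 and Jun were the members that passed the test against sham and Fos is the founding member. Capitals mark matches to TGACGT, the core of the cyclic AMP element, to TGANTCA, the classical AP-1 site, or to TGACATCA and TTACCTCA, the pair of AP-1-like elements for which the Jun promoter is known.
Atf3: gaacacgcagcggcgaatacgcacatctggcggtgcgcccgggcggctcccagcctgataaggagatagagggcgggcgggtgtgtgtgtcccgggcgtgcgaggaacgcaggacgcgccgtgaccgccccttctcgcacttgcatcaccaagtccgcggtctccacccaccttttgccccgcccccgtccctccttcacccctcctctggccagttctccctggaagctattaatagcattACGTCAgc
Jun: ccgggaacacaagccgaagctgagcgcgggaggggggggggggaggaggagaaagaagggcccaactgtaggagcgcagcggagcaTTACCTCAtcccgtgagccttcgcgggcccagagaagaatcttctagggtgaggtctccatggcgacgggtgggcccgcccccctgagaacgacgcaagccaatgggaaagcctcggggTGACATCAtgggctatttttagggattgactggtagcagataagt
Fos: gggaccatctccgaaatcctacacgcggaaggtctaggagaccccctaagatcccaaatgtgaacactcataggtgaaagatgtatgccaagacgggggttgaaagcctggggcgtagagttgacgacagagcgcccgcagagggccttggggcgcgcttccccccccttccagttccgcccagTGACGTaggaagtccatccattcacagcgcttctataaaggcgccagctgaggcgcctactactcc
Positions are counted back from the base before the gene's start, which is -1. The Fos match to TGACGT runs from -66 to -61, and the Atf3 match, on the opposite strand, from -8 to -3. In Jun, TGACATCA runs from -45 to -38 and TTACCTCA from -164 to -157. Of the members, 7 were in the promoter table. On either strand TGACGT occurred in 2 of these 7 and in 6.47% of all 32851 promoter stretches, TGACATCA in 1 of 7 and 2.93%, and TTACCTCA in 1 of 7 and 0.728%. TGANTCA occurred in 0 of 7 and in 6.75% of all, and the motifs do not overlap in these stretches. A match is a description of letters and says nothing about binding in these cells.

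Values are log2 signals as the authors normalized them, and differences are on the log2 scale with the standard error (SE) of a limma fit across all 15 arrays. The fit covered 9969 genes, those in the upper 50% of mean signal, over which p was adjusted by the Benjamini-Hochberg method, with a threshold of 0.05. Of the 8 members, 7 were in this set. Fosl1 had a mean of 5.50 over all arrays, just under the minimum of 5.5125, and its differences come from a fit without the filter. The cells carried their label: the mean log2 signal over 8 cardiomyocyte genes (Myh6, Tnnt2, Actn2 and others) lay between 11.96 and 12.18 in every array.

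On day 3 the stress-induced partner Atf3 and the central subunit Jun rose, and no member fell. Atf3 read 10.25, 10.19 and 10.24 in the iron day 3 arrays, against 8.87, 7.97 and 8.54 in the sham arrays. The iron arrays sat within 0.06 of each other and above every sham array. The difference was 1.77 (SE 0.439, adjusted p = 0.0289). Jun, the subunit with which all Fos proteins and Atf3 can pair, read 10.50, 10.55 and 10.59 in the iron day 3 arrays, against 9.75, 9.27 and 9.85 in the sham arrays. Again the groups did not overlap and the iron arrays were the tighter of them. The difference was 0.92 (SE 0.248, adjusted p = 0.0389). Among all genes tested, 2.79% passed on the higher side, and 2 of the 7 members did.

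Neither call held in a fit that left out 1 of the arrays compared. Without any one of the 3 day 3 arrays, and without any one of the 3 sham arrays, neither gene passed (adjusted p between 0.0609 and 0.0879 for Atf3 and between 0.0658 and 0.109 for Jun). The differences themselves kept their direction there, between 1.53 and 1.97 for Atf3 and between 0.74 and 1.04 for Jun. Without 1 of the day 3 arrays they stayed between 1.76 and 1.79 for Atf3 and between 0.90 and 0.94 for Jun. Jun also missed the threshold without replicate 2 of iron day 1 (adjusted p = 0.0502) and without either array of iron day 28 (0.0570 and 0.0569), which enter through the shared spread. The plot of adjusted p by setting shows these shifts.

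**Figure D1:**
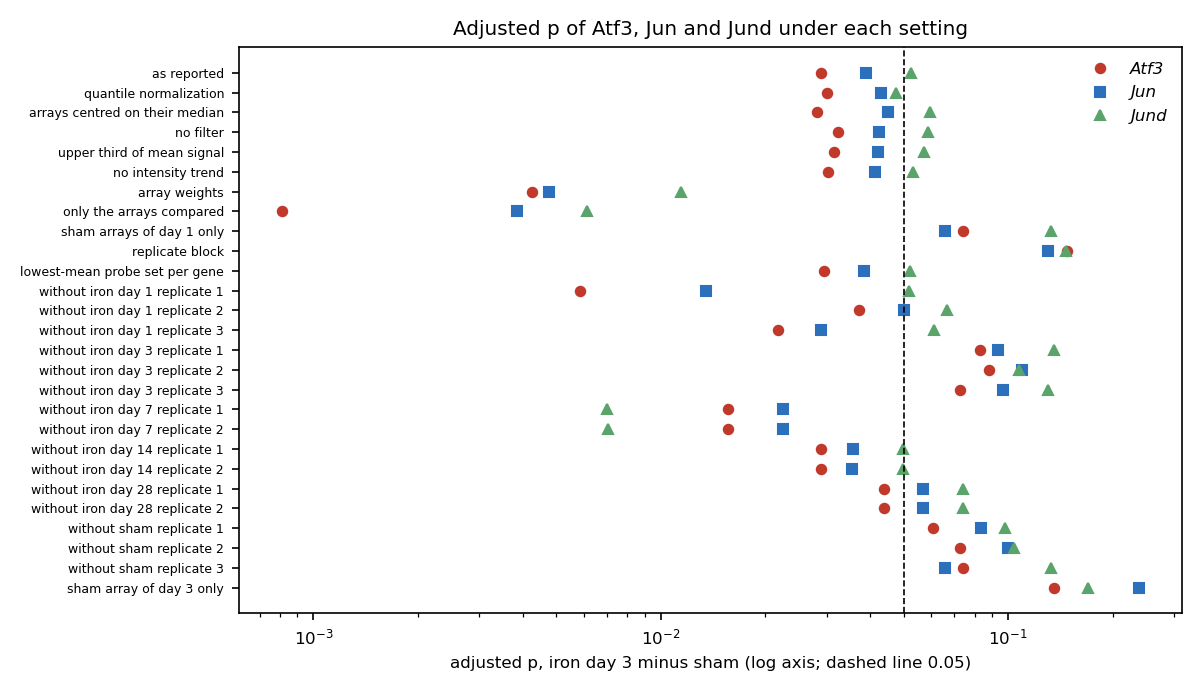
Adjusted p of Atf3, Jun and Jund in iron day 3 minus sham (log axis) under the reported fit, which is the top line, and each alternative, 1 line each. The dashed line is the threshold of 0.05, and Atf3 and Jun lie to its right whenever an iron day 3 array or a sham array was left out.

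The other tested members did not pass on day 3, and the difference was above 0 in all 7, beside 57.1% of all genes. Jund, the Jun protein that is expressed at rest and is known in mice to restrain hypertrophy, read 7.94, 7.80 and 7.95 in iron day 3 cells, against 7.45, 7.29 and 7.32 in sham cells. Its groups did not overlap, and the difference of 0.54 lay just beyond the threshold (SE 0.160, adjusted p = 0.0526). It passed in 4 of the 15 fits that left out 1 array, namely without either array of iron day 7 (adjusted p = 0.00699 and 0.00704) and without either array of iron day 14 (0.0499 each). Fos, the founding member, read 8.99, 8.47 and 9.14 in iron day 3 arrays, against 8.25, 7.64 and 7.94 in sham arrays. The groups were apart, and the difference of 0.93 was as large as that of Jun with a wider error (SE 0.383, adjusted p = 0.140). Fos also missed the threshold in every fit that left out a sham, iron day 1 or iron day 3 array, with differences between 0.78 and 1.13. Fosl2, a late-acting Fos protein without a strong activation domain, read 7.75, 7.14 and 7.04 in iron day 3 arrays, against 6.85, 6.45 and 7.00 in sham arrays. Its lowest iron array lay just above its highest sham array, and the difference was 0.55 (SE 0.206, adjusted p = 0.113).

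Fosb and Junb overlapped between the groups on day 3. Fosb, a close relative of Fos, read 7.98, 7.42 and 8.24 in iron day 3 arrays, against 7.54, 7.24 and 7.18 in sham arrays, a difference of 0.56 (SE 0.310, adjusted p = 0.263). Junb, which can oppose Jun at its targets, read 8.96, 7.83 and 8.70 in iron day 3 arrays, against 7.94, 7.96 and 8.13 in sham arrays, a difference of 0.48 (SE 0.286, adjusted p = 0.298). In both genes replicate 2 of iron day 3 was the low array, and in Junb it lay below every sham array. Fosl1, the Fos protein of invasive cells and bone, read 5.30, 5.41 and 5.82 in iron day 3 arrays, against 5.57, 5.41 and 5.25 in sham arrays, with a difference of 0.10 (SE 0.144, adjusted p = 0.684 without the filter). Over the 7 tested members the median difference on day 3 was 0.56, beside 0.0366 over all genes tested. At an unadjusted p under 0.05, 5 of 7 were higher, beside 13.9% of all genes, and in the same 5 the arrays did not overlap, beside 19.8% of all genes.

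**Figure D2:**
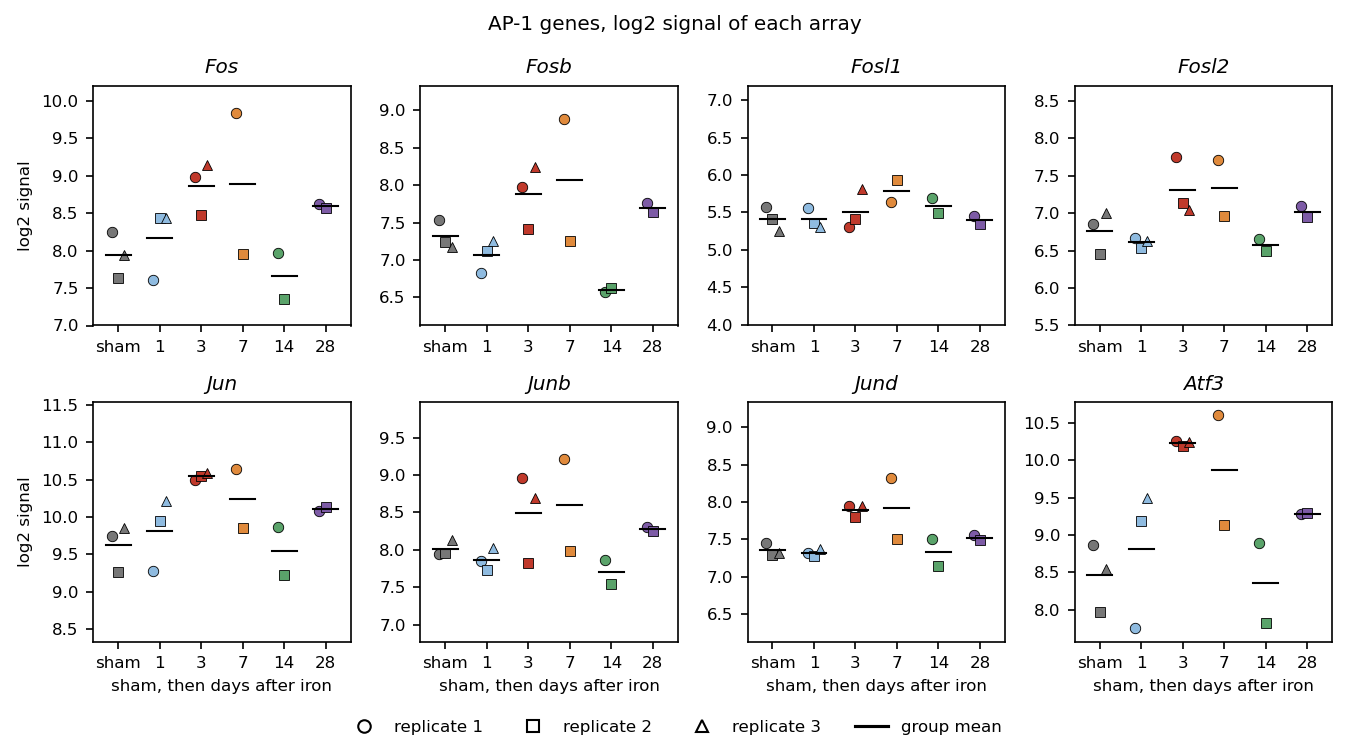
Log2 signal of each AP-1 gene in every array (points, shaped by replicate number), for sham and then days 1, 3, 7, 14 and 28 after iron; bars are group means and every panel spans the same number of log2 units. The 3 day 3 arrays of Atf3 and Jun sit close together above all sham arrays, and the 2 day 7 arrays lie far apart in 7 genes.

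RNA markers of fibroblasts, macrophages and endothelium were lower than sham on day 3, as their median differences already were on day 1. Of all genes tested, 5.25% were called lower on day 3. Of the fibroblast markers, 7 of the 7 tested fell, among them Lum, a collagen-binding proteoglycan (-1.90, adjusted p = 0.00536), and Postn, a matrix protein of activated fibroblasts (-2.0, adjusted p = 0.00536), with Pdgfra at -1.55 and Col3a1 at -1.81. The mean log2 signal over the 8 listed fibroblast genes was 6.06 to 6.27 in iron day 3 arrays and 7.49 to 7.60 in sham arrays. Macrophage markers fell in 6 of 7 tested cases, among them Adgre1 (-1.46, adjusted p = 0.00631) and Lyz2 (-1.71, adjusted p = 0.00827), with Csf1r at -1.26 and Mrc1 at -1.56. Their mean over 8 genes was 6.19 to 6.55 in iron day 3 arrays and 7.50 to 7.77 in sham arrays. Endothelial markers fell in 5 of 7 cases, among them Vwf (-1.29, adjusted p = 0.00660), Tek (-1.28), Pecam1 (-1.26) and Emcn (-1.32), with a mean of 7.00 to 7.36 in iron day 3 arrays and 8.19 to 8.50 in sham arrays. Among these 3 lists the lowest means over the arrays were 4.62 for the fibroblast gene Tcf21 and 5.42 for the macrophage gene Cd163. Both lay under the minimum of 5.5125, so neither gene was tested. Smooth muscle and pericyte markers (mean over 5 genes of 6.45 to 6.91 in iron day 3 arrays and 6.72 to 7.50 in sham arrays) and lymphocyte markers (4.36 to 4.74 and 4.74 to 6.97) had 0 of 3 and 0 of 2 tested members past the threshold in limma (without adjustment, 2 and 0 had a p under 0.05). In a bulk sample, fewer cells of a type and less RNA per cell cannot be told apart. The part of these cells in the AP-1 differences was not tested.

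On day 1 the family stood near sham. Atf3 read 7.75, 9.18 and 9.49 in the iron day 1 arrays, Jun 9.28, 9.94 and 10.22, and Fos 7.61, 8.44 and 8.44. Replicate 1 was the lowest iron day 1 array for these 3 and for Fosb (6.82, beside 7.12 and 7.26), and in Atf3 it was the lowest of all 15 arrays. The same array carried the most RNA of other cells in its group, with endothelial means of 8.50, 7.43 and 7.38 and fibroblast means of 7.38, 6.57 and 6.24 in replicates 1, 2 and 3. Against sham, the median difference on day 1 was -0.86 for 7 fibroblast markers, -0.87 for 7 macrophage markers and -0.57 for 7 endothelial markers. In limma 0 of these markers passed, and 7, 7 and 4 had an unadjusted p under 0.05, beside 11.0% of all genes. Their part in the day 1 AP-1 values was not tested. Differences from sham over the 7 tested AP-1 members ran from -0.25 for Fosb to 0.35 for Atf3, with a median of -0.03 (0.0282 over all genes). In limma 0 of 7 passed, beside 0.0602% of all genes, and 0 of 7 had an unadjusted p under 0.05, beside 11.0% of all genes.

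Between day 1 and day 3 of the iron groups, a comparison with no sham array in it, the 7 tested members all had positive differences, beside 51.9% of all genes. These ran from 0.57 for Jund to 1.42 for Atf3 (SE 0.160 and 0.439, adjusted p = 0.189 and 0.225), with a median of 0.71 beside 0.00721 over all genes. In 6 of the 7, with Junb as the exception, every day 3 array lay above every day 1 array, beside 9.74% of all genes. Fosl2 read 7.75, 7.14 and 7.04 on day 3, against 6.67, 6.53 and 6.63 on day 1. Jund read 7.94, 7.80 and 7.95 on day 3, against 7.32, 7.28 and 7.37 on day 1. These were differences of 0.70 (SE 0.206, adjusted p = 0.20) for Fosl2 and 0.57 for Jund. In limma 0 of 7 passed after adjustment, beside 0.0502% of all genes, and 6 of 7 had an unadjusted p under 0.05 on the higher side, beside 6.3% of all genes. Over the fits that left out 1 array the median ran from 0.62 to 0.91.

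On day 7 the 2 arrays disagreed across the family. Replicate 1 was the highest of all 15 arrays for 6 of the 8 members, and replicate 2 lay nearer to sham. Fos read 9.84 and 7.95 in the iron day 7 arrays, against 8.25, 7.64 and 7.94 in the sham arrays. Fosb read 8.88 and 7.26, against 7.54, 7.24 and 7.18 in sham, and Junb read 9.21 and 7.98, against 7.94, 7.96 and 8.13 in sham. Replicate 1 exceeded replicate 2 by 0.75 to 1.89 in 7 of the 8 genes, and the exception was Fosl1 (5.64 and 5.93). Atf3 read 10.60 and 9.13, Jun 10.64 and 9.85, and Jund 8.32 and 7.51. These 3 were apart from sham, beside 15.3% of all genes, although replicate 2 lay close to the highest sham array in Jun and Jund.

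Against sham the day 7 differences of the 7 tested members ran from 0.56 for Jund to 1.41 for Atf3, with a median of 0.62 beside -0.0342 over all genes. In limma 0 of 7 passed, beside 4.6% of all genes, while 6 of 7 had an unadjusted p under 0.05 on the higher side, beside 9.82% of all genes. Atf3 (SE 0.491) had an adjusted p of 0.109, Jund (SE 0.179) of 0.0830, Fosl2 (0.57, SE 0.231) of 0.156 and Jun (0.62, SE 0.277) of 0.192. Fos (0.95, SE 0.429) had an adjusted p of 0.196, Fosb (0.75, SE 0.346) of 0.203 and Junb (0.58, SE 0.320) of 0.287. Fosl1 read 5.64 and 5.93 on day 7, against 5.57, 5.41 and 5.25 in sham, which did not overlap (0.38, SE 0.160, adjusted p = 0.212 without the filter). Without replicate 1 of iron day 7 the median was 0.16, and Fosb and Junb stood at -0.06 and -0.03. Without replicate 2 the median was 1.19, with Fos at 1.90, Fosb at 1.56 and Jund at 0.97. Either fit leaves 1 array on day 7, so only the differences are given. Without replicate 1 of iron day 1, Atf3 alone passed. Replicate 1 of iron day 7 also had a higher mean over macrophage markers (8.52, beside 8.01 in replicate 2). The same held for lymphocyte markers (7.37 beside 5.85) and endothelial markers (8.12 beside 7.52). Its cardiomyocyte mean was the lowest of all arrays (11.96, beside 12.08 in replicate 2). Both day 7 arrays lay above sham in the macrophage mean (7.50 to 7.77 in sham), with 0 of 7 markers past the threshold in limma and a median difference of 0.52. Fibroblast means (6.93 to 7.35, beside 7.49 to 7.60) and endothelial means (8.19 to 8.50 in sham) were lower than sham. Lymphocyte means overlapped sham (4.74 to 6.97). The part of these cells in the day 7 AP-1 values, or in the gap between the 2 arrays, was not tested.

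**Figure D3:**
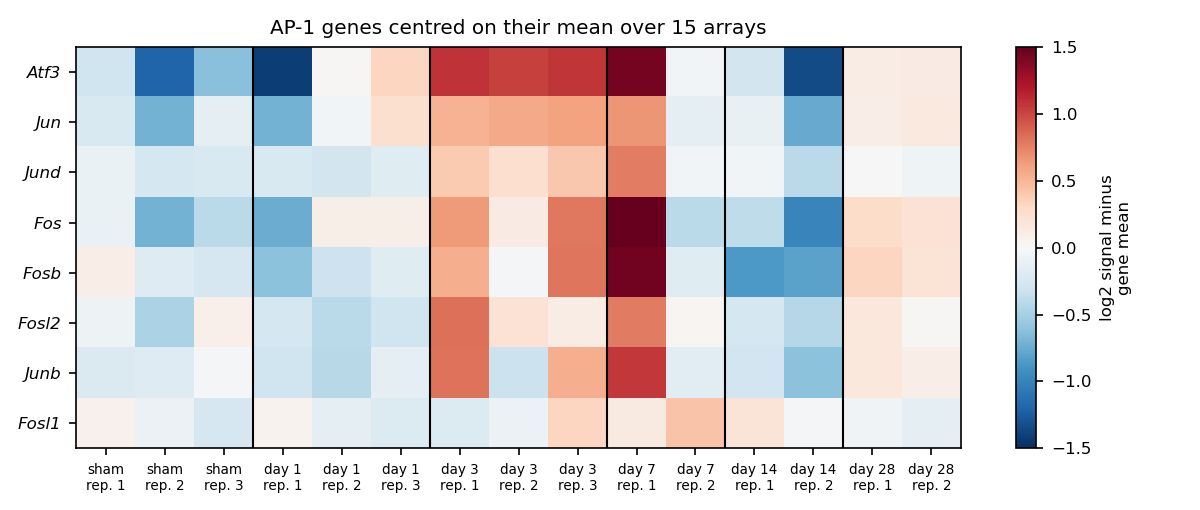
Log2 signal of each AP-1 gene minus its own mean over 15 arrays (colour, red above and blue below), with 1 column per array ordered as sham and then iron days. The columns of replicates 1 and 3 of iron day 3 and of replicate 1 of iron day 7 are red in nearly all rows. Replicate 2 of iron day 3 lies below the gene mean in Junb, Fosb and Fosl1. Replicate 2 of iron day 14 is blue in the 7 upper rows, and Fosl1 in the bottom row varies little.

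On day 14 no tested member had a mean above that of sham, beside 45.9% of all genes, while Fosl1 read 5.69 and 5.49, against 5.57, 5.41 and 5.25 in sham (0.18, SE 0.160, adjusted p = 0.609 without the filter). Fosb read 6.57 and 6.63 in the iron day 14 arrays, the lowest values of this gene among the 15 arrays, against 7.54, 7.24 and 7.18 in sham. Junb read 7.86 and 7.54, against 7.94, 7.96 and 8.13 in sham. In these 2 genes the iron arrays lay below all sham arrays, beside 17.0% of all genes, and their differences were -0.72 (SE 0.346, adjusted p = 0.335) and -0.31 (SE 0.320, adjusted p = 0.657). Atf3 read 8.89 and 7.82 and Jun 9.87 and 9.23 on day 14, which overlapped sham. The median over the 7 tested members was -0.18, beside -0.0196 over all genes. In limma 0 of 7 passed, beside 0.833% of all genes, and 0 of 7 had an unadjusted p under 0.05, beside 15.4% of all genes. Fibroblast markers had a mean of 6.53 to 6.68 on day 14 and 7.49 to 7.60 in sham, macrophage markers 6.88 to 7.42 and 7.50 to 7.77, and endothelial markers 7.41 to 8.01 and 8.19 to 8.50. Of the fibroblast markers 2 of 7 tested fell, Lum and Postn, beside 0.833% of all genes called in either direction. The part of these cell types in the Fosb and Junb values was not tested.

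On day 28 the 2 arrays were close to each other and lay slightly above sham. Atf3 read 9.28 and 9.29 in iron day 28 arrays, against 8.87, 7.97 and 8.54 in sham arrays. Fos read 8.62 and 8.57, against 8.25, 7.64 and 7.94 in sham, and Jun read 10.08 and 10.13, against 9.75, 9.27 and 9.85 in sham. No member differed by more than 0.14 between the day 28 arrays. In 6 of the 7 tested members, with Fosl2 as the exception, both iron arrays lay above all sham arrays, beside 25.7% of all genes. The differences over the 7 tested members ran from 0.17 for Jund to 0.83 for Atf3 (SE 0.179 and 0.491, adjusted p = 0.631 and 0.377), with a median of 0.38 beside 0.0190 over all genes. In limma 0 of 7 passed, beside 2.0% of all genes, and 0 of 7 had an unadjusted p under 0.05, beside 19.3% of all genes. Lymphocyte markers had a mean of 7.32 to 7.43 on day 28 and 4.74 to 6.97 in sham, where replicate 3 read 6.97 beside 4.74 and 4.93. Fibroblast markers were lower than sham (6.99 to 7.09, beside 7.49 to 7.60), and so were macrophage markers (6.98 to 7.16, beside 7.50 to 7.77). Endothelial markers overlapped sham (8.22 to 8.29, beside 8.19 to 8.50). The part of these cells in the day 28 AP-1 levels was not tested.

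**Figure D4:**
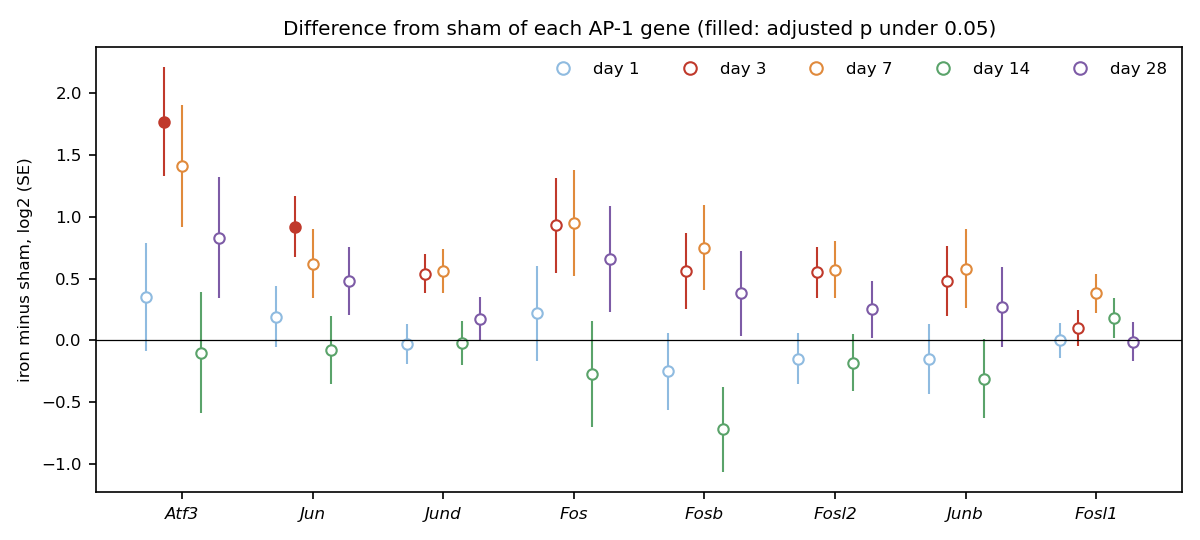
Difference of each iron day from sham for the AP-1 genes (points, log2 units) with the SE of the fit (bars), 5 days per gene from day 1 on the left to day 28 on the right. Filled points passed an adjusted p of 0.05, which were Atf3 (1.77) and Jun (0.92) on day 3; Fosl1 is from the fit without the filter.

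The group means had much the same order in the 7 tested members, and Fosl1 had another, with day 14 next to the highest and day 28 lowest. Day 3 or day 7 had the highest mean in 8 of 8 members, and day 14 had the lowest in 6 of 8. For Atf3 the means were 8.46 ± 0.453 in sham (SD, n = 3), 8.81 ± 0.929 on day 1 (n = 3), 10.23 ± 0.0299 on day 3 (n = 3), 9.87 ± 1.04 on day 7 (n = 2), 8.36 ± 0.760 on day 14 (n = 2) and 9.28 ± 0.00298 on day 28 (n = 2). In that order from high to low (day 3, day 7, day 28, day 1, sham, day 14), every neighbour overlapped the next, and the same held for Jun, Fosl1 and Fosl2 in their own orders. For Jund the day 3 arrays (mean 7.90 ± 0.0847, n = 3) lay wholly above those of day 28 (7.52 ± 0.0541, n = 2), and these wholly above sham (7.35 ± 0.0835, n = 3). Fosb on day 28 (7.70 ± 0.0825, n = 2) was apart from sham (7.32 ± 0.192, n = 3), and on day 1 (7.07 ± 0.227, n = 3) from day 14 (6.60 ± 0.0430, n = 2). An F test among the 5 iron days found that Fosb (adjusted p = 0.0391) and Jund (0.0441) changed with day, which was 2 of 7 members beside 19.2% of all genes. Fosl2 (0.0515), Atf3 (0.0553), Jun (0.0808), Junb (0.146) and Fos (0.155) did not pass. Fosb missed the threshold in 10 and Jund in 12 of the 15 fits that left out 1 array. Among the fits that kept at least 2 arrays in every group, adjusted p in the F test reached 0.0711 for Fosb and 0.0894 for Jund. Between day 3 and day 7 of the iron groups, differences (day 7 minus day 3) ran from -0.36 for Atf3 to 0.19 for Fosb, and in limma 0 of 7 passed beside 14.8% of all genes, with 0 of 7 at an unadjusted p under 0.05 beside 30.5%. The median of the 7 tested members in this comparison ran from -0.62 to 0.43 over the fits that left out 1 array.

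Across the 15 arrays the 7 tested members varied together. Their 21 pairwise Pearson correlations ran from 0.707 (Jun with Junb) to 0.984 (Jun with Atf3), with a median of 0.862. Fosl1 stood outside, with correlations of 0.023 to 0.284 with the other members and a signal near the minimum. These correlations are a description over arrays that share groups, normalization and cell make-up. The tested genes most like Atf3 were Jun (r = 0.984), the nuclear receptor gene Nr4a3 (0.951) and the matricellular gene Ccn1 (0.934), and those most like Jun were Atf3, Nr4a3 (0.944) and Ccn1 (0.933). Fos was most like Btg2, an antiproliferative gene (0.959), Egr1, a zinc finger factor (0.918), and Fosb (0.918). Fosb was most like Egr1 (0.920), Fos and Zfp36, whose product promotes decay of AU-rich transcripts (0.916). Junb was most like Zfp36 (0.948), Egr2 (0.947) and Egr1 (0.922). Jund was most like Nr4a3 (0.931), Nr4a1 (0.918) and Dusp1 (0.903), and Fosl2 was most like Dusp5, a nuclear phosphatase of Erk (0.964), Ifrd1 (0.932) and Nr4a1 (0.923).

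Single genes of several pathway lists also rose on day 3, when 2.79% of all genes were called higher and 5.25% lower (8.03% in all). Among 14 listed zipper proteins that can partner AP-1 or compete with it, 9 were tested and 1 rose, the stress factor gene Ddit3 (1.21, SE 0.195, adjusted p = 0.00679), with a median of 0.22. Ddit3 read 8.14, 7.64 and 7.73 in iron day 3 arrays, against 6.84, 6.43 and 6.61 in sham arrays, and the groups were far apart. It stood at 0.37 on day 7 (adjusted p = 0.326). Of the 7 tested MAP kinase phosphatases, which switch off the kinases that activate AP-1, Dusp1 rose (0.98, SE 0.220, adjusted p = 0.0203) and the median was 0.22. Dusp1 read 10.93, 10.84 and 10.65 in iron day 3 arrays, against 10.02, 9.43 and 10.00 in sham arrays. Among 14 other immediate early genes tested, Nr4a3 (1.72, SE 0.355, adjusted p = 0.0159) and Ier5 (0.98, SE 0.271, adjusted p = 0.0431) rose, and the median was 0.31.

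Of the 14 tested genes of the MAP kinase cascade, 0 passed against sham on any day in limma, with 0, 2, 2, 1 and 7 at an unadjusted p under 0.05 on days 1, 3, 7, 14 and 28, beside 11.0%, 27.2%, 24.0%, 15.4% and 19.3% of all genes. Map3k7 fell between the iron groups (day 7 minus day 3: -0.31, adjusted p = 0.0346), which was 1 of 14 beside 14.8% of all genes. Map2k4 and Map3k1 passed the F test among iron days, which was 2 of 14 beside 19.2% of all genes. Both counts lie below the share of all genes, and all 3 genes were named after their values were seen. On day 3 the tested factors that bind the Fos and Jun promoters (Srf, Creb1, Mef2 and others) had 0 of 11 higher and 1 lower, Elk3, an Srf partner that is also active in endothelium (-0.82, SE 0.208, adjusted p = 0.0313), with a median of 0.06. Elk3 read 5.77, 5.75 and 5.89 in iron day 3 arrays, against 6.89, 6.48 and 6.51 in sham arrays, and the endothelial markers above also fell on that day; their part in the Elk3 value was not tested. The 6 tested coactivator and turnover genes, such as Crebbp, Ep300 and the ubiquitin ligase gene Fbxw7, had 0 past the threshold in limma on day 3, also without adjustment, and a median of -0.12.

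Listed AP-1 target genes did not rise with Atf3 and Jun on day 3. Of 11 tested, 0 rose and 3 fell, beside 2.79% and 5.25% of all genes, with a median of -0.64. These 3 were the matrix protease gene Mmp2 (-1.51, SE 0.282, adjusted p = 0.0105), the protease inhibitor gene Timp1 (-1.37, SE 0.311, adjusted p = 0.0216) and the prostaglandin synthase gene Ptgs2 (-1.29, SE 0.306, adjusted p = 0.0253). Mmp2 read 7.08, 7.22 and 7.26 in iron day 3 arrays, against 8.62, 8.80 and 8.65 in sham arrays. Mmp2 and Timp1 are also products of fibroblasts, whose markers fell on the same day, and the part of these cells in the Mmp2 and Timp1 values was not tested. On day 7, 1 of the 11 tested targets rose, the heme-degrading enzyme gene Hmox1 (1.09, SE 0.227, adjusted p = 0.0215), beside 4.6% of all genes called in either direction. Hmox1 was singled out after its values were seen. Hmox1 read 7.56 and 6.87 in iron day 7 arrays, against 6.16, 5.84 and 6.37 in sham arrays, and it too was higher in replicate 1. Without replicate 1 of iron day 7, which leaves 1 array there, the Hmox1 difference was 0.75. Its call was lost without sham replicate 1 or 2 (adjusted p = 0.0556 and 0.067). The macrophage mean was also above sham on day 7, and the part of these cells in the Hmox1 value was not tested.

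Several of these calls on day 3 were lost without 1 array. Nr4a3 missed the threshold without iron day 3 replicate 2 (adjusted p = 0.0638), as did the markers Mrc1 and Tek, and Dusp1 without iron day 3 replicate 1 or 2 or sham replicate 2 (up to 0.0739). Elk3 (up to 0.113) and Timp1 (up to 0.0816) were lost without any one iron day 3 array or sham replicate 1, and Elk3 also without sham replicate 3. Ptgs2 (up to 0.0931) and Nfil3, a clock-linked repressor gene (up to 0.0837), were lost without iron day 3 replicate 1 or 2 or any one sham array. Ier5 was lost without any one iron day 3 or sham array, iron day 1 replicate 2 or either iron day 28 array (up to 0.136). Among the markers, Pecam1 was also lost without iron day 3 replicate 2 or sham replicate 1, and Emcn without these or iron day 3 replicate 1. Ddit3 and Mmp2 passed in all 15 fits that left out 1 array, with adjusted p up to 0.0349 and 0.0453. Mmp2 missed the threshold with the sham array of day 3 alone as control (0.0767), and Ddit3 passed there too.

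The circadian clock genes shifted in the groups of days 7, 14 and 28, whose AP-1 differences from sham did not pass. On day 7, 2 of 10 tested clock genes rose and 7 fell, and on days 14 and 28, 2 rose and 5 fell. Of all genes, 4.6%, 0.833% and 2.0% passed in either direction on days 7, 14 and 28. The mean over 10 clock genes was 6.78 to 7.02 on day 7, 6.91 to 7.06 on day 14 and 6.99 to 7.02 on day 28, against 7.64 to 7.75 in sham. On day 3, when Atf3 and Jun rose, it was 7.74 to 7.78, although this mean pools genes that moved in opposite directions on later days. Dbp, a clock output factor, read 9.78, 9.99 and 10.03 on day 3, against 9.93, 9.82 and 9.51 in sham (difference 0.18, adjusted p = 0.412). The clock gene Arntl read 4.75, 4.14 and 4.37, below its sham values of 5.12, 4.80 and 5.59. In limma 2 of 10 clock genes had an unadjusted p under 0.05 on day 3, beside 27.2% of all genes. The part of the clock in the AP-1 differences was not tested. The clock gene that passed on day 3 was Nfil3 (0.41, SE 0.0963, adjusted p = 0.0241), 1 of 10 tested, beside 2.79% of all genes on the higher side.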

How the data were processed

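The deposited values were log2 signals of 34760 probe sets on 15 arrays, already normalized by the authors. MAS5 is listed in the submitters' processing notes without a version or a role. A single gene symbol was annotated for 21640 probe sets, several for 1321 and none for 11799. Each of the 19937 named genes was represented by its probe set with the highest mean. Genes in the upper 50% of mean signal (9969) entered the test in limma 3.58.1 (R 4.3.3), with 6 group means (sham pooled over its days), an intensity trend and 9 residual degrees of freedom, after a test of the pipeline on simulated data. Precision is limited by the number of arrays (2 or 3 per group). The members, gene lists and tests were chosen with earlier results of these data known. Named genes were the members, up to 4 passing genes per list on day 3, and the 3 genes most correlated with each tested member. Not all listed genes had a probe set with a single symbol. Alternatives were 2 other scalings, 2 other filters, no trend, array weights, fewer arrays, other sham arrays, a replicate block, another probe set and leaving out each array; the sham array of day 3 alone as control was chosen after seeing the data. Tables and figures used Python 3.11.15, pandas 2.3.3, numpy 2.4.6 and matplotlib 3.10.9.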

Additional observations from a re-analysis of the deposited data

Results flagged for a closer look

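Fosb and Jund differed between the iron days by the F test (adjusted p = 0.0391 and 0.0441, limma). Fosb averaged 7.07 on day 1, 7.88 on day 3, 8.07 on day 7, 6.60 on day 14 and 7.70 on day 28, and Jund 7.32, 7.90, 7.92, 7.33 and 7.52 on the same days. Of all genes 19.2% passed this test, so 2 of 7 members is near the share of all genes. Fosb was lost in 10 and Jund in 12 of the 15 fits that left out 1 array, and 0 members passed with only the iron arrays.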

How the results depend on the processing

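On day 3, 2 members and 801 of all 9969 genes passed against sham. The member count was 4 with only the arrays compared, where 1090 genes passed. It was 0 with the sham arrays of day 1 alone (269 genes) and 0 with a replicate block (155 genes). Fits that left out 1 sham or iron day 3 array gave 0 members. On day 7, Fosb stood between -0.06 and 1.56 and Junb between -0.03 and 1.19 over the fits that left out 1 array. On day 28 array weights gave 1 of 7 members, beside 2448 of all 9969 genes. Over the fits that left out 1 array, the median ran from 0.62 to 0.91 for day 3 minus day 1. For day 7 minus day 3 it ran from -0.62 to 0.43. In the F test, 2 members and 1911 of all 9969 genes passed. The member count was 1 with arrays centred on their median (2830 genes) and 5 with array weights (4051 genes). It was 0 with only the iron arrays (1645 genes) and 3 with the replicate block (1249 genes). Without the filter it was 1, beside 1989 of 19937 genes. On days 1 and 14 no alternative run gave a member past the threshold. Of all named genes called on day 3, members included, 14 were lost with the replicate block (adjusted p = 0.0512 to 0.202; Mmp2, Nr4a3, Dusp1, Ier5, Elk3, Timp1, Ptgs2, Nfil3 and the markers Lyz2, Tek, Pecam1 and Emcn beside Atf3 and Jun). With the sham array of day 3 alone 16 were lost (0.0523 to 0.238; the same without Lyz2, and with Pdgfra, Csf1r and Mrc1), and with the sham arrays of day 1 alone 6 (0.0514 to 0.10; Atf3, Jun, Elk3, Ptgs2, Ier5 and Nfil3). Hmox1 on day 7 was lost with only the arrays compared (0.1245) and with the sham array of day 3 alone (0.183). The cause of these shifts was not tested.

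Replicate numbers were not used as pairs in the reported fit. Over 31 pairs of arrays with the same number, residual correlations ran from -0.394 to 0.565, with a median of 0.0616, and 11 were above 0.1. Over 50 pairs with other numbers the median was -0.029, and 14 were above 0.1. With the replicate block neither Atf3 nor Jun passed on day 3. Sham replicate 3, which has no number in its title, was its own level in the block. Leaving out this array is the same fit as the sham arrays of day 1 alone, so the 2 settings are not separate checks. Over all genes the day 3 count of 801 ranged from 126 to 1080 without 1 array and from 155 to 1691 over the other alternatives. Centring arrays on their median moved the share of higher genes from 34.7% to 22.9% on day 3, from 42.0% to 15.0% on day 7 and from 70.9% to 38.0% on day 28.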
